A study of Mus musculus with 10 samples.

Results

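Calcium pumps and sarcolipin were examined in mouse acute lymphoblastic leukaemia cells, as all probe sets that the platform annotation gives to Atp2b1, Atp2b4, Atp2a2, Atp2a3 or Sln. There were 14 such probe sets for 5 genes, out of 45037 probe sets other than controls and 18193 genes. The genes had been picked because Atp2b4 was low and Sln high in allogeneic samples while the other pumps differed less, so their differences between the groups are given below as a description and without a test. The first group was leukaemia sorted from 5 C57BL/6 animals that had received allogeneic C3.SW marrow and spleen cells, and the second was leukaemia from 5 C57BL/6 animals that had received syngeneic C57BL/6 marrow and spleen cells. All recipients had been given total body irradiation and 5-fluorouracil, and ages were not given. All of the leukaemia was of C57BL/6 background, carried human p210 bcr/abl, lacked Ink4a/Arf and was labelled NSTY ALL. It was passed serially through freshly transplanted animals of the same kind and was finally sorted on a GFP marker. The labels do not say whether the leukaemia was 1 clone, or whether animals of a group shared an earlier recipient, so the spread given is that between these animals.

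Calcium pumps are ATP-driven transporters that keep free calcium in the cytosol low. Pumps of the plasma membrane, PMCA, encoded by the Atp2b genes, expel calcium from the cell, and pumps of the sarcoplasmic and endoplasmic reticulum, SERCA, encoded by the Atp2a genes, refill the internal store that receptor signalling releases. Sarcolipin, the product of Sln, is a small membrane peptide that binds SERCA and lowers the calcium moved per ATP spent, and is best known from striated muscle. In blood cells SERCA2b and SERCA3 are the usual SERCA forms, and release from the store followed by entry from outside carries the calcium signal of the antigen receptor.

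Values are log2 intensities after quantile normalization between the 10 arrays. A probe set was called above background on an array where it exceeded the 95th percentile of 27 control probe sets for bacterial transcripts, a limit of 4.50 to 5.32. Allogeneic animals 1, 3 and 4 had a raised low end, with a lower quartile of 18.7 to 19.5 in the deposited intensities, beside 14.0 and 14.2 in allogeneic animals 2 and 5 and 13.7 to 14.4 in the syngeneic group. The 3' over 5' signal of Gapdh, a sign of RNA integrity, was 1.39 to 1.57 in allogeneic samples and 1.48 to 1.59 in syngeneic samples. Of 14 measured B-lymphoid progenitor markers, 13 were above background on all 10 arrays, and Pax5, a B-lineage transcription factor, was so on 6. The bright signal of a probe set depends on its sequence as well as on its transcript, so levels are compared between animals and not between probe sets. In sorted bulk RNA, fewer cells with a transcript and less of it per cell cannot be told apart.

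**Figure D1:**
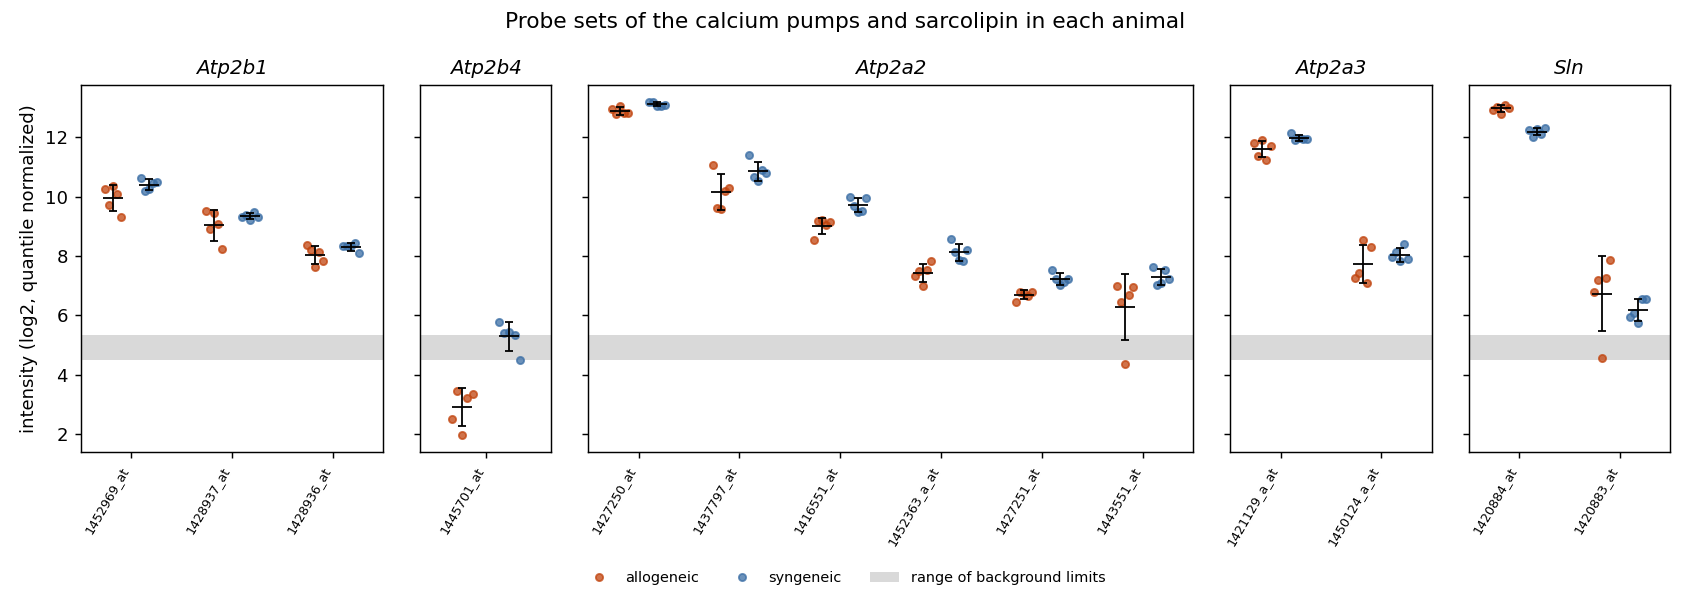
Log2 intensity (vertical axis) of each of the 14 probe sets (horizontal axis, grouped by gene) in 5 allogeneic and 5 syngeneic animals, with group means and SD as bars and the range of the background limits in grey. Atp2b4 lies below the grey range in all 5 allogeneic animals, and the brighter Sln probe set lies at or above 12.80 in the allogeneic group and at or below 12.30 in the syngeneic group.

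Promoter windows are shown for Atp2b4, whose groups did not overlap, and for a SERCA gene that was also lower, because members that differ together can be set side by side by sequence. RefSeq windows of build GRCm38.p6, 300 bases long, were found for 3 of the 5 genes (Atp2b1, Atp2b4 and Atp2a3) and not for Atp2a2 or Sln. The Atp2b4 window, chr1:133753698-133753997 on the minus strand, belongs to a start 47312 bases inside the gene from its outermost annotated start. The Atp2a3 window is chr11:72960919-72961218 on the plus strand, at the outermost start. Capitals mark every match, on either strand, to the GGAAA core bound by NFAT, the calcium-responsive transcription factor, or to the GC box GGGCGG.
Atp2b4: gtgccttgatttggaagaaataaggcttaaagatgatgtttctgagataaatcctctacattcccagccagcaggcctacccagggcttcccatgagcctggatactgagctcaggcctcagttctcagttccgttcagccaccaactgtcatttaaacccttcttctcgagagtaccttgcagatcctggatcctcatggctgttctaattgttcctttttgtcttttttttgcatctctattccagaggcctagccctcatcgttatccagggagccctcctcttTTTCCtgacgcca
Atp2a3: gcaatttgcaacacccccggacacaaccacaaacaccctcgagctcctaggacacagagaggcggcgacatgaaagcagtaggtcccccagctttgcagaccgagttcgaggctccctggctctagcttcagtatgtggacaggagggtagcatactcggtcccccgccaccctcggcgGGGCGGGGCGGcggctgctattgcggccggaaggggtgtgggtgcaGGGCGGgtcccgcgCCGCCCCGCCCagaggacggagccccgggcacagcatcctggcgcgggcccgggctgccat
The Atp2b4 window held 1 match to GGAAA and 0 to the GC box. The Atp2a3 window held 5 GC box matches, some overlapping, and 0 to GGAAA, and the 2 Atp2b1 windows held 4 and 3 GC boxes. Of all 32851 windows, 61.3% held GGAAA and 35.7% held the GC box. The Atp2b4 window was 47.7% G or C and that of Atp2a3 68.3%, against a median of 52.7% over all windows. The interferon-linked motifs GAAANNGAA and TTCNNNGAA, searched on both strands, had 0 matches in the member windows and occurred in 8.56% and 8.3% of all windows. These are letter matches in short windows, and a match to GGAAA can overlap in part, but not wholly, with one to either interferon-linked motif.

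Among plasma membrane pumps, Atp2b4, which encodes PMCA4, was below background in all 5 allogeneic animals and above it in 4 of 5 syngeneic animals. Atp2b1, which encodes the widely expressed PMCA1, was measured in all animals, and its difference of -0.27 to -0.45 came with overlap between groups. The single Atp2b4 probe set, 1445701_at, read 2.51, 3.46, 1.96, 3.22 and 3.36 in allogeneic animals 1 to 5, against 5.78, 5.41, 5.44, 5.34 and 4.48 in syngeneic animals 1 to 5. The groups did not overlap, and syngeneic animal 5 was the lowest of its group, below its background limit of 5.1. Syngeneic animal 4 was only just above its own limit of 5.32. Group means were 2.90 ± 0.64 in allogeneic and 5.29 ± 0.49 in syngeneic leukaemia (SD, n = 5 each), a difference of -2.39 (SE 0.34). Because every allogeneic reading was below background, the fold is a lower bound: the mean of the higher of each array's limit and the reading, set against the syngeneic mean, gives Atp2b4 at least 1.37-fold lower in the allogeneic group. Its size relative to the other pumps is therefore not settled. With a floor of 16 put under the deposited intensities the difference was -1.29. Without allogeneic animals 1, 3 and 4, whose arrays had the raised low end, it was -1.88.

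Atp2b1 had 3 probe sets, all above background on all 10 arrays. Probe set 1452969_at read 10.27, 9.71, 10.37, 10.09 and 9.30 in allogeneic animals 1 to 5, against 10.64, 10.18, 10.24, 10.45 and 10.49 in syngeneic animals 1 to 5. Allogeneic animals 2, 4 and 5 were below every syngeneic value, and allogeneic animals 1 and 3 were inside the syngeneic range. Means were 9.95 ± 0.44 and 10.40 ± 0.19 for allogeneic and syngeneic leukaemia (SD, n = 5 each), a difference of -0.45 (SE 0.22). The other two Atp2b1 probe sets differed by -0.31 (SE 0.23) and -0.27 (SE 0.16). All 3 overlapped between groups. Without allogeneic animal 5, the lowest on 2 of them, the first difference was -0.29 and that of 1428937_at was -0.11, and without allogeneic animal 3 that of 1428936_at was -0.16. Without allogeneic animals 1, 3 and 4, whose arrays had the raised low end, the first became -0.90 and that of 1428937_at -0.78.

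Among SERCA genes, Atp2a2, the source of SERCA2, was lower in allogeneic leukaemia on each of 6 probe sets, by -0.22 to -1.02, and 4 of the 6 had every allogeneic value below every syngeneic one, beside 2.37% of all probe sets, a share given for scale since this contrast was used to pick the genes. Probe set 1416551_at, annotated to NM_009722, read 8.52, 9.17, 9.20, 9.03 and 9.15 in allogeneic animals 1 to 5, against 9.99, 9.68, 9.49, 9.52 and 9.95 in syngeneic animals 1 to 5. All allogeneic values were lower, with allogeneic animal 1 lowest. Means were 9.01 ± 0.28 and 9.72 ± 0.23 for allogeneic and syngeneic leukaemia (SD, n = 5 each), a difference of -0.71 (SE 0.18), or 61.1% of the syngeneic level.

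The other Atp2a2 probe sets varied in size of difference and in which animal was lowest. Probe set 1427251_at read 6.44 to 6.80 in allogeneic animals and 7.02 to 7.54 in syngeneic animals, and differed by -0.54 (SE 0.14). Probe set 1452363_a_at read 6.98 to 7.82 in allogeneic animals and 7.84 to 8.56 in syngeneic animals, and differed by -0.69 (SE 0.20). Both were thus wholly lower, the second pair of ranges by a narrow gap. Probe set 1443551_at read 7.00, 6.43, 4.34, 6.69 and 6.96 in allogeneic animals 1 to 5, against 7.63, 7.03, 7.09, 7.53 and 7.23 in syngeneic animals 1 to 5. Its difference of -1.02 (SE 0.47) came without overlap and was -0.53 without allogeneic animal 3, whose reading was below background, and -0.60 without allogeneic animals 1, 3 and 4. Probe set 1437797_at differed by -0.70 (SE 0.29) and overlapped, since allogeneic animal 1 read 11.08, above 4 of the 5 syngeneic values. The brightest probe set, 1427250_at, read 12.97, 12.77, 13.07, 12.82 and 12.83 in allogeneic animals 1 to 5, against 13.20, 13.17, 13.05, 13.06 and 13.09 in syngeneic animals 1 to 5. Only allogeneic animal 3 lay inside the syngeneic range, and the difference of -0.22 (SE 0.11) was the smallest of the 6. The mean over all Atp2a2 probe sets differed by -0.65 (SE 0.16).

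Atp2a3 encodes SERCA3, a form found mainly in blood, endothelial and epithelial cells, and its signal was modestly lower in allogeneic leukaemia. Probe set 1421129_a_at read 11.81, 11.38, 11.90, 11.24 and 11.70 in allogeneic animals 1 to 5, against 12.16, 11.92, 11.98, 11.94 and 11.93 in syngeneic animals 1 to 5. The groups did not overlap, but the highest allogeneic value, of animal 3, was only just below the lowest syngeneic value. The difference was -0.38 (SE 0.16). The dimmer probe set 1450124_a_at overlapped and differed by -0.32 (SE 0.29), with allogeneic animals 3 and 5 at 8.53 and 8.29 and the other 3 at 7.10 to 7.42, against 7.82 to 8.41 in syngeneic animals. That difference was -0.20, -0.52 and -0.16 without allogeneic animal 1, 3 or 4, and -0.18 without all of them. Both probe sets are annotated to NM_016745.

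Sln ran the opposite way. Probe set 1420884_at read 12.92, 13.04, 12.80, 13.10 and 12.99 in allogeneic animals 1 to 5, against 12.25, 12.02, 12.29, 12.11 and 12.30 in syngeneic animals 1 to 5. Every allogeneic value was higher, and both groups were tight. Means were 12.97 ± 0.12 and 12.19 ± 0.12 for allogeneic and syngeneic leukaemia (SD, n = 5 each), a difference of 0.78 (SE 0.12), or 1.71-fold. The dimmer probe set 1420883_at read 6.78, 7.18, 4.57, 7.24 and 7.87 in allogeneic animals 1 to 5, against 5.94, 6.08, 5.75, 6.54 and 6.56 in syngeneic animals 1 to 5. Allogeneic animals 1, 2, 4 and 5 were above every syngeneic value and allogeneic animal 3 was below all of them. Its difference of 0.56 (SE 0.54) was 1.10 without allogeneic animal 3 and 0.27 without allogeneic animal 5. It was 0.86 with array weights and 1.35 without allogeneic animals 1, 3 and 4.

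**Figure D2:**
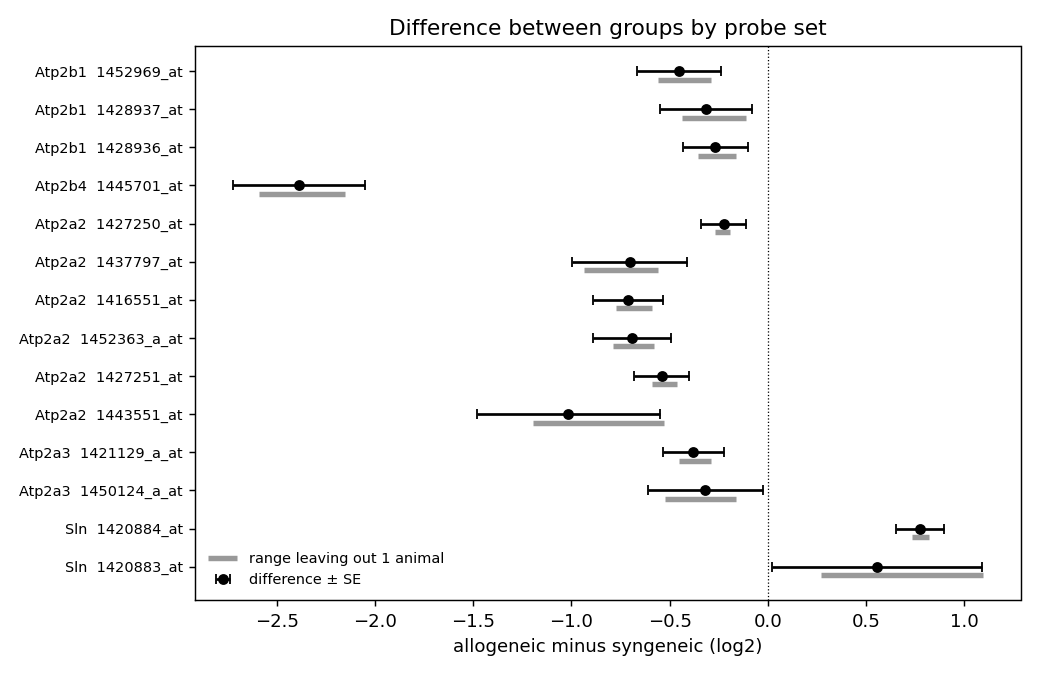
Allogeneic minus syngeneic difference (horizontal axis, log2) for each of the 14 probe sets (vertical axis), as a point with its SE from limma, and as a grey bar the range when any 1 animal is left out. Both Sln probe sets lie right of 0 and the 12 pump probe sets left of it, with Atp2b4 at -2.39, a value that rests on allogeneic readings below background.

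In all, 12 of the 14 member probe sets were lower and 2 higher in allogeneic leukaemia, beside 51.5% and 48.5% of all probe sets. The median difference of the 14 was -0.42, beside -0.014 over all 45037 probe sets. Of the 14, 6 were wholly lower, beside 2.37% of all probe sets, and 1 was wholly higher, beside 2.37%. These counts come from the contrast by which the genes were picked, and nothing is read from them. No filter on low values was applied, and 13 of the 14 probe sets were above background on at least 5 arrays, Atp2b4 being the exception with 4.

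The allogeneic animals did not share a single profile. Over the 11 probe sets of Atp2b1, Atp2a2 and Atp2a3, allogeneic animals 2, 4 and 5 were below all 5 syngeneic values on 10 each, and allogeneic animals 1 and 3 on 7 each. The median departure from the syngeneic mean was -0.60, -0.59 and -0.43 in allogeneic animals 2, 4 and 5, and -0.18 and -0.47 in allogeneic animals 1 and 3. Atp2b1 was lowest in allogeneic animal 5, at -1.10 and -1.12 from the syngeneic mean on 2 of its probe sets. By contrast the brighter Sln probe set stood between 0.60 and 0.91 above the syngeneic mean in all 5 animals. The dimmer Sln probe set was not even, from -1.61 in allogeneic animal 3 to 1.70 in allogeneic animal 5. The SD was larger in the allogeneic group for 12 of the 14 probe sets, beside 77.3% of all probe sets.

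**Figure D3:**
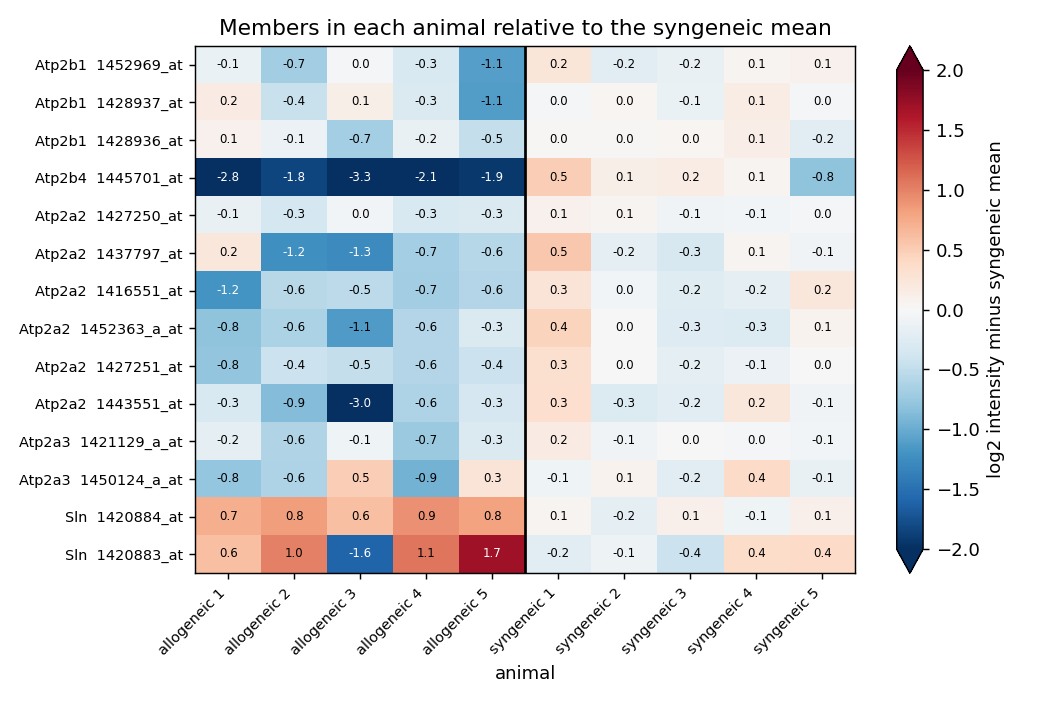
Each cell gives one probe set (rows) in one animal (columns, allogeneic left of the line and syngeneic right) as log2 intensity minus the syngeneic mean, blue below and red above, with colours saturated at 2. The Atp2b4 row runs from -1.83 to -3.33 in allogeneic animals, all readings below background, the row of the brighter Sln probe set is evenly red there, and allogeneic animal 3 stands apart on the dimmest Atp2a2 and Sln probe sets.

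Probe sets of one gene did not always vary together among animals of a group. With each group's mean removed, correlations over the 10 arrays ran from -0.56 to 0.88 over the 15 pairs of Atp2a2 probe sets (median 0.16), and from 0.053 to 0.89 over the 3 pairs of Atp2b1. The pair for Atp2a3 gave 0.56 and that for Sln 0.52. Probe sets 1416551_at and 1427251_at of Atp2a2 were the closest of that gene at 0.88. The dim Sln probe set 1420883_at and the Atp2a2 probe set 1443551_at gave 0.89, with allogeneic animal 3 the lowest on both. The points are the same 10 arrays and share their normalization, so these values are descriptions.

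The 3 genes most like each member over the 10 arrays, by Pearson correlation of log2 intensity among about 12191 genes above background on at least 5 arrays, were taken as a description. For Sln these were the death receptor gene Fas (r = 0.98, Spearman 0.90), Gm11517 (0.97) and Fam184b (0.97). Values over all 10 arrays include the difference between groups, for which Sln and Atp2b4 had been picked. With group means removed the Fas value was 0.61, Gm11517 0.84 and Fam184b 0.56. For Atp2b4 they were Brix1, a ribosome assembly factor (0.94), Cfap97 (0.93) and the RAS activator gene Rasgrp1 (0.93), and within groups these were 0.51, 0.49 and 0.43. Only 4 of the 10 Atp2b4 readings were above background, and the genes were picked for their value over all 10 arrays, so within-group and overall values are not compared. Gnaq, a G protein subunit gene, was closest to Atp2b1 (0.98 over all arrays and within groups), Fam168b to Atp2a2 (0.97 and 0.95) and Lrmp to Atp2a3 (0.97 and 0.95).

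The remaining calcium genes were tested in limma over all 18193 genes. Of 134 listed, 117 were measured, and 0 passed at an adjusted p under 0.05, beside 0.583% of all genes. At an unadjusted p under 0.05 there were 10 higher and 5 lower, beside 9.47% higher and 7.40% lower of all genes. Together these 15 were 12.8% of those measured, beside 16.9% of all genes. The median difference of the 117 was -0.0011, beside 0.011 over all genes, and 7 of them (5.98%) had groups without overlap, beside 4.83% of all genes. The count of 0 became 4 without allogeneic animal 1 (S100a1 and Orai3 higher, Trpm7 and Micu3 lower), and 1 without allogeneic animal 5 (Rcn1, higher).

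Other pumps and exchangers had 0 of 13 measured members called. Atp2a1, the SERCA of fast skeletal muscle, read 6.54, 6.43, 6.47, 6.90 and 7.01 in allogeneic animals 1 to 5, against 6.28, 6.17, 5.96, 6.13 and 6.17 in syngeneic animals 1 to 5. These groups did not overlap, and the difference of 0.53 (SE 0.14) had an adjusted p of 0.132 by limma. Atp2b2, the PMCA best known from neurons and hair cells, differed by 0.78 (SE 0.23, limma adjusted p = 0.152). It was above background in 5 of 5 allogeneic and 2 of 5 syngeneic animals, and 1 of its 3 probe sets was lower instead. Groups did not overlap for Atp2a1 and Atp2b2, 2 of the 13 (15.4%), beside 4.83% of all genes. Atp2c1, the Golgi calcium and manganese pump, differed by -0.16 (limma adjusted p = 0.574).

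SERCA regulators other than Sln had 0 of 9 measured members called. S100a1, a calcium sensor known to act on SERCA2 in heart, averaged 8.53 ± 0.39 in allogeneic and 7.68 ± 0.29 in syngeneic leukaemia (SD, n = 5 each), a difference of 0.85 (SE 0.21) with an adjusted p of 0.110 by limma. Its groups did not overlap. Sri, which encodes sorcin, differed by 0.25 (limma adjusted p = 0.280), and Vmp1, an endoplasmic reticulum protein that binds SERCA, by -0.30 (limma adjusted p = 0.334). Groups did not overlap for S100a1 and Sri, 2 of the 9 (22.2%), beside 4.83% of all genes. Of 3 Sri probe sets 1 was lower instead, and of 2 Vmp1 probe sets 1 was higher instead. Phospholamban, encoded by Pln and a relative of sarcolipin, averaged 5.31 in allogeneic and 5.10 in syngeneic leukaemia and was above background on 8 arrays (difference 0.22, limma adjusted p = 0.698). Myoregulin, encoded by Mrln, averaged 5.01 in allogeneic and 5.15 in syngeneic leukaemia and was above background on 6.

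PMCA partners had 0 of 8 measured members called. Nptn and Bsg, which encode the PMCA subunits neuroplastin and basigin, differed by 0.12 (SE 0.13) and 0.23 (SE 0.12) and were above background on all 10 arrays. Cask, a scaffold protein gene, differed by 0.92 (SE 0.40, limma adjusted p = 0.280), Dlg1, another scaffold gene, by -0.25 (adjusted p = 0.287) and Slc9a3r2, which encodes the adaptor NHERF2, by 0.36 (adjusted p = 0.355). Probe sets disagreed in direction for Cask (3 higher, 1 lower) and Slc9a3r2 (4 higher, 2 lower), and all 3 of Dlg1 were lower.

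Of store release genes 0 of 11 measured members were called, and the smallest adjusted p by limma was 0.465. Itpr2, an inositol trisphosphate receptor gene, differed by 0.28 (limma adjusted p = 0.478), Psen2, which encodes presenilin 2, by 0.25 (adjusted p = 0.610), and Fkbp1b, which encodes a protein that binds ryanodine receptors, by -0.72 (SE 0.68, adjusted p = 0.6255). Itpr2 had 4 probe sets higher and 2 lower, and Psen2 had 1 of each. Of calcium entry genes 0 of 22 were called. Trpm7, a channel fused to a kinase, read 10.37, 9.64, 9.10, 9.26 and 9.13 in allogeneic animals 1 to 5, against 10.19, 10.02, 10.42, 10.12 and 10.20 in syngeneic animals 1 to 5. Allogeneic animal 1 lay inside the syngeneic range and the other 4 below it, and the difference of -0.69 (SE 0.24) had an adjusted p of 0.193 by limma. The store sensor genes Stim1 and Stim2 differed by 0.057 (SE 0.19) and -0.013 (SE 0.13), and the channel gene Orai1 by 0.37 (SE 0.16, limma adjusted p = 0.287). Piezo1, a mechanically gated channel gene, differed by -0.32 (SE 0.15, limma adjusted p = 0.302).

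Mitochondrial uptake genes had 0 of 9 called, with Micu3, a regulator of the uniporter, at -0.61 (SE 0.23, limma adjusted p = 0.226). Vdac3, a channel of the outer membrane, differed by 0.15 (adjusted p = 0.475), and Mcur1, a uniporter regulator, by 0.13 (adjusted p = 0.576), with its 2 probe sets opposed. Among calcium buffers of the endoplasmic reticulum 0 of 11 were called. Rcn1, which encodes reticulocalbin, came nearest of the 117 genes. It read 10.70, 10.79, 10.75, 10.79 and 10.19 in allogeneic animals 1 to 5, against 9.92, 10.01, 10.03, 9.81 and 10.13 in syngeneic animals 1 to 5, and differed by 0.66 (SE 0.14, limma adjusted p = 0.0751). The other of its 2 probe sets differed in the opposite direction. Pdia4, a disulfide isomerase gene, differed by 0.31 (limma adjusted p = 0.419), also with opposed probe sets, and Casq1, which encodes calsequestrin, by -0.35 (adjusted p = 0.432). Calcineurin, NFAT and CaM kinase genes had 0 of 24 called, with Homer3, a scaffold gene, at 0.39 (SE 0.17, limma adjusted p = 0.283). The calcineurin subunit gene Ppp3cb differed by -0.20 (adjusted p = 0.427), with 3 probe sets higher and 2 lower, and Camkk2 by -0.37 (adjusted p = 0.446). Of B cell receptor calcium signalling genes 0 of 10 were called, with 8 of the 10 lower and a median of -0.15, beside 59 of the 117 calcium genes lower. At an unadjusted p under 0.05 in limma there were 3 (30%), beside 16.9% of all genes. Groups did not overlap for 2 (20%), beside 4.83% of all genes. It was 1 of 9 lists and was not tested as a set. Dapp1, an adaptor in B cell receptor signalling, differed by -0.58 (SE 0.16, limma adjusted p = 0.132) and Btk, the kinase that activates phospholipase C gamma, by -0.24 (SE 0.10, limma adjusted p = 0.257), both without overlap. Pik3ap1, an adaptor that links the receptor to PI3 kinase, ran the other way at 0.41 (SE 0.16, limma adjusted p = 0.242), with overlap. The other of the 2 Dapp1 probe sets was higher instead. A p that misses the threshold does not show that levels were equal.

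**Figure D4:**
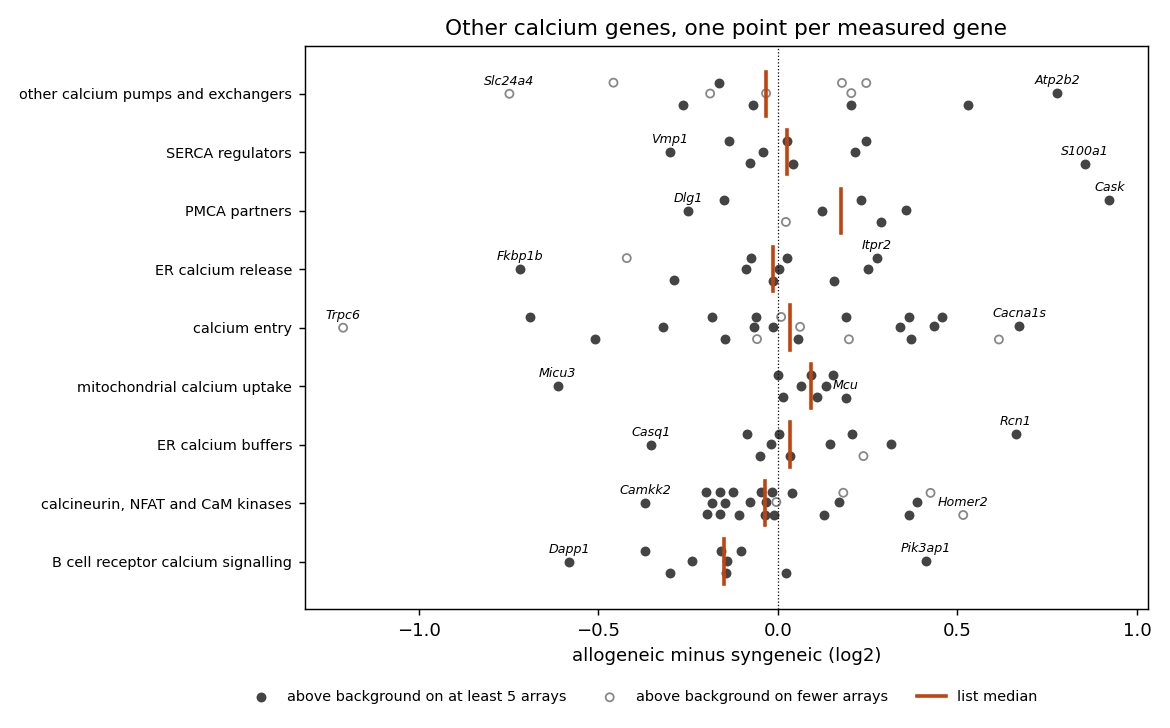
Allogeneic minus syngeneic difference (horizontal axis, log2) of each of the measured calcium genes other than the members, by list (vertical axis), with the list median as a bar and open circles for genes above background on fewer than 5 arrays. List medians lie between -0.15 and 0.18, and the lowest and highest gene of each list is named.

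Markers of other cell types were read beside these results. Muscle is the tissue in which Sln and Atp2a1 are best known. Of 21 muscle markers, which include Atp2a1, Casq1 and Ryr1 of the calcium lists, 8 were above background on all 10 arrays and 5 on 0 arrays (Ckm, Myh1, Myh6, Tnni3 and Myl1). Their summed linear intensity was 2523 to 5418 in allogeneic and 3583 to 4461 in syngeneic animals, their median difference was -0.13, and the brightest, Tnni2, differed by -0.23 (limma adjusted p = 0.759). Members of the list went both ways, with 2 higher and 2 lower at an unadjusted p under 0.05. Mb, which encodes myoglobin, differed by 0.74 (limma adjusted p = 0.209) and was above background in 5 allogeneic and 3 syngeneic animals, while Acta1, skeletal actin, differed by -0.67 (adjusted p = 0.261) and was so in 0 allogeneic and 2 syngeneic animals. Platelet and red cell lists were read because those cells hold SERCA3 and PMCA4. Of 10 measured platelet markers 3 were above background on all arrays and 3 on 0 (Gp1bb, Gp6 and Clec1b), with summed intensity of 602 to 1252 in allogeneic and 678 to 1633 in syngeneic animals. Of 8 measured erythroid markers 2 were above background on all arrays and 1 on 0 (Hba-a1), with sums of 247 to 1262 in allogeneic and 446 to 1924 in syngeneic animals. Of 15 macrophage and monocyte markers 8 were above background on all arrays and 3 on 0 (Cd14, Itgam and Cx3cr1). Their sums were 13215 to 14911 in allogeneic and 9813 to 12012 in syngeneic animals, but sums weigh the brightest genes most. Mpeg1, among the brightest of that list, differed by 0.68 (limma adjusted p = 0.182). Of the 15, 7 were higher and 8 lower, with a median difference of -0.062. Of 15 stroma and endothelium markers 2 were above background on all arrays and 6 on 0 (Lum, Pdgfra, Pdgfrb, Cxcl12, Tek and Vwf). Their sums overlapped, at 871 to 1113 in allogeneic and 683 to 899 in syngeneic animals. In that list 12 were higher and 3 lower, with a median difference of 0.37. At an unadjusted p under 0.05 in limma, 4 (26.7%) were higher and 0 lower, beside 9.47% and 7.40% of all genes. Of 13 T and NK cell markers 4 were above background on all arrays and 3 on 0 (Cd8b1, Ncr1 and Gzmb). Their sums also overlapped, at 1413 to 2306 in allogeneic and 1221 to 1676 in syngeneic animals. Here 7 were higher and 6 lower, with a median difference of 0.20. Of 7 mature B cell markers 4 were above background on all arrays and none was at or below it throughout. Their sums were 10772 to 18700 in allogeneic and 13740 to 15911 in syngeneic animals. In this list 1 was higher and 6 lower, with a median difference of -0.19. Of the brightest markers of the other lists, Cd24a differed by 0.0097 in the B-lymphoid progenitor list, Itgb3 by 0.051 in the platelet list, Fcgr3 by 0.21 in the macrophage list and Cd74 by -0.014 in the mature B cell list. In the B-lymphoid progenitor list 12 were higher and 2 lower, and Pax5 differed by -1.21 (SE 0.52, limma adjusted p = 0.281). Pax5 was above background in 2 allogeneic and 4 syngeneic animals. Hbb-b2, a globin gene, differed by -1.16 (SE 0.97, limma adjusted p = 0.575). Pecam1, an endothelial adhesion gene, differed by 0.41 (SE 0.16, adjusted p = 0.240). Gzma, the granzyme A gene of T and NK cells, averaged 9.92 ± 0.50 in allogeneic and 8.86 ± 0.33 in syngeneic leukaemia (SD, n = 5 each), a difference of 1.06 (SE 0.25) with an adjusted p of 0.0995 by limma, the smallest of all markers. Of 103 measured markers 0 passed in limma, and 9 were higher and 5 lower at an unadjusted p under 0.05 (13.6%, beside 16.9% of all genes). The part of any macrophage, stroma, T, NK or mature B cell difference in the values of the pumps and of Sln was not tested.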

How the data were processed

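Leukaemia RNA from 10 animals (5 allogeneic, 5 syngeneic) was measured with 1 Affymetrix array each, after labelling with NuGEN kits per the labels' protocols. Values deposited by the authors are linear intensities of 45101 probe sets. The sources used here state neither their summarisation nor their scaling. For the comparisons log2 of these intensities was taken, followed by quantile normalization. Symbols came from the platform annotation. For 34754 probe sets the gene identifier was found in GRCm38.p6 and the symbol given there was used, whether or not it differed. In all, 34945 probe sets have 1 symbol, 932 several and 9160 none, and 64 are controls. For each of 18193 genes the probe set with the highest mean stood for the gene. Allogeneic and syngeneic samples were compared with limma 3.58.1 (lmFit and eBayes, R 4.3.3), with Benjamini-Hochberg adjustment over all genes. The same fit on all 45037 probe sets gave the SE of member probe sets. With adjustment over those probe sets it gave the number of probe sets called. The gene fit was also run on simulated data of independent genes with the same SD in both groups. In the real data the SD was larger in the allogeneic group for 77.3% of all probe sets, which that simulation does not cover. The number of arrays limits the precision.

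The members and lists were chosen with earlier results of these data known. Named were all member probe sets, and for the other 9 calcium lists the 3 genes of smallest p among those above background on at least 5 arrays. Also named were the brightest marker of each list and the 3 genes most like each member. Pln, Mrln, Nptn, Bsg, Stim1, Stim2, Mb, Acta1 and further markers were named for their role, and Mpeg1 for its brightness, after their values were seen. Of 134 listed calcium genes 17 are not analysed here. Alternatives covered normalization, a floor, a filter, the choice of probe set, eBayes settings, array weights, the animal number as a block and the samples included.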

Additional observations from a re-analysis of the deposited data

Results flagged for a closer look

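Dixon's test for a value apart from its group was run on 82 groups of 5 animals. It marked 5 of them, and about 1 in 20 would be marked by chance. Allogeneic animal 1 read 8.52 on Atp2a2 probe set 1416551_at, below the other 4 allogeneic animals at 9.03 to 9.20. Allogeneic animal 3 read 4.34 on Atp2a2 probe set 1443551_at, below the others at 6.43 to 7.00. Syngeneic animal 1 read 12.2 on Atp2a3 probe set 1421129_a_at, above the others at 11.92 to 11.98. Allogeneic animal 5 read 10.2 for Rcn1, below the others at 10.7 to 10.8. Allogeneic animal 3 read 10.8 for Camkk2, a kinase that activates CaM kinases, above the others at 9.54 to 9.89.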

How the results depend on the processing

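Under 19 other settings the 14 member probe sets gave 256 differences, of which 252 moved by less than the spread between replicates, 4 moved by more and 0 changed sign. Those that moved were Atp2b4 at -1.29 with a floor of 16, Atp2a2 at -0.65 by the mean over its probe sets, and Atp2b1 at -0.90 (and -0.78 on 1428937_at) without allogeneic animals 1, 3 and 4 together. Atp2b4 gave no value when features above background on fewer than 5 arrays were left out. Genes called numbered 106 (86.8% higher), and 241 with the floor, 307 with that filter, 307 with trend and robust eBayes, 720 with array weights (58.9% higher), 658 without allogeneic animals 1, 3 and 4, and 55 to 636 leaving out 1 animal (57, 55 and 56 without syngeneic animals 1, 2 and 5, and 69 and 636 without allogeneic animals 4 and 1). Probe sets called numbered 185, and 454, 616, 482, 1398 and 1940 under the same 5 settings, and 70 to 2022 leaving out 1 animal (73, 76, 85, 111 and 70 without syngeneic animals 1 to 5, and 89 and 2022 without allogeneic animals 4 and 1). Other calcium genes called numbered 0, and 1 (Rcn1) with the floor, the filter or trend and robust eBayes, 3 with array weights (S100a1, Trpm7 and Rcn1), and 0 to 4 leaving out 1 animal. With the animal number as a block, 14 genes and 7 probe sets were called and the calcium count stayed at 0. Same-numbered animals correlated at -0.207 to 0.349 over 10455 genes and 2 of 5 correlated best with their own number. These values do not settle whether the numbers pair the samples. The sample descriptions give only an animal number within each group. The sample titles hold other numbers, whose meaning is not stated and which were not used here. In those titles allogeneic animals 4 and 5 share the number before the hyphen. For probe sets near background, such as Atp2b4, signal limits the fold to a bound.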
